A study of Arabidopsis thaliana with 7 samples.

Results

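The SAUR genes (SMALL AUXIN UP RNA) of Arabidopsis thaliana were followed in isolated 8-cell embryos. A list of 49 SAUR loci was matched to the array by probe set identifier, and all 49 were found among 27826 probe sets. RNA was measured on 7 one-colour arrays, 4 with wild-type embryos of Columbia (Col-0) and 3 with embryos of the Bodenlos (IAA12) mutant, called bdl, in that ecotype. Each array was hybridised with RNA pooled from about 40 to 50 embryos picked with a micromanipulator. The labels give neither the bdl allele, nor its copy number in the embryos, nor whether a transgene was present. Antibiotic selection of transgenic seeds appears in the growth protocol of both genotypes. Replicates were not said to come from separate harvests, so the p-values cover the spread among these arrays alone, which may be technical.

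SAUR genes encode small plant-specific proteins, and many of their transcripts appear within minutes of auxin treatment and decay quickly. The best studied SAUR proteins bind and inhibit PP2C.D phosphatases, which keeps plasma membrane H+-ATPases phosphorylated and active, so that the cell wall is acidified and the cell expands. Auxin acts on such genes by removing Aux/IAA repressors from auxin response factors. BODENLOS is the Aux/IAA protein IAA12, a partner of MONOPTEROS (ARF5), and the bdl protein is known as a form that resists this removal. The comparison therefore addresses which SAUR transcripts differ in early bdl embryos, in which the auxin response itself was not measured. Many SAUR genes lie in tandem arrays of closely related copies.

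The targeted gene, IAA12, was read at intensities of 135 to 167 on the wild-type arrays, while bdl had 432 to 477. Median intensities of the arrays were 8.44 to 9.37. All 6 embryo markers (WOX2, WOX8, WOX9, DRN, ATML1 and LEC1) lay above the array median on every array, with log2 list means of 8.54 to 8.92 (wild type) and 8.27 to 8.39 (bdl). The 13 pollen markers had log2 list means of 2.33 to 5.61 (wild type) and 1.98 to 3.98 (bdl), highest on wild type 4 (5.61), bdl 2 (3.98) and wild type 2 (3.67). Their summed intensity was 78.3 to 1394 (wild type) and 56.9 to 439 (bdl). All 13 had a lower mean in bdl, with a median log2 difference of -0.61, while 51.7% of all probe sets were lower. None of the 13 had an unadjusted p under 0.05 by limma. Seed coat markers (10 genes) summed to 166 to 353 (wild type) and 74.0 to 187 (bdl), endosperm markers (9 genes) to 204 to 346 and 113 to 218, and green tissue markers (5 genes) to 52.2 to 93.8 and 90.5 to 128. By limma 4 seed coat markers (40.0%) had an unadjusted p under 0.05, against 10.7% of all probe sets, and none passed after adjustment. TT2, STK and MUM4 were lower on every bdl array and TT1 higher. SUC5 made up most of the endosperm sum (geometric mean 268 in wild type and 141 in bdl) and alone lay above the array median. LHCB1.3 was higher in bdl by 2.05 on the log2 scale (limma, adjusted p = 0.0281), and 2 of the 5 green tissue markers were lower. No marker was at 0, since no value on the array was, and without detection calls the level of background stays unknown. In pooled embryos fewer cells of a type and less RNA per cell cannot be told apart.

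Most SAUR genes were dim in these embryos. A gene was counted as above the median where its mean log2 intensity in a genotype exceeded the median of all probe sets in that genotype, 3.15 in wild type and 3.17 in bdl. By this rule 11 of the 49 SAUR genes (22.4%) were above the median in either genotype, against 53.0% of all probe sets. Of the 11, 8 were above it in both genotypes (SAUR32, SAUR33, SAUR47, SAUR49, SAUR51, SAUR54, SAUR70 and SAUR72). SAUR61 was above it in wild type alone, and SAUR50 and SAUR59 in bdl alone. The other 38 were above it in neither genotype. In both genotypes 21 SAUR genes (42.9%) lay under the 25th percentile (1.86 in wild type and 1.81 in bdl), against 19.8% of all probe sets. The nearest to the limit from above was SAUR59, at 2.90 in wild type and 3.41 in bdl, and from below SAUR41, at 2.95 and 2.16. Brightness depends on the probes as well as on the RNA, so this position on the array describes a signal and does not rank transcripts.

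**Figure D1:**
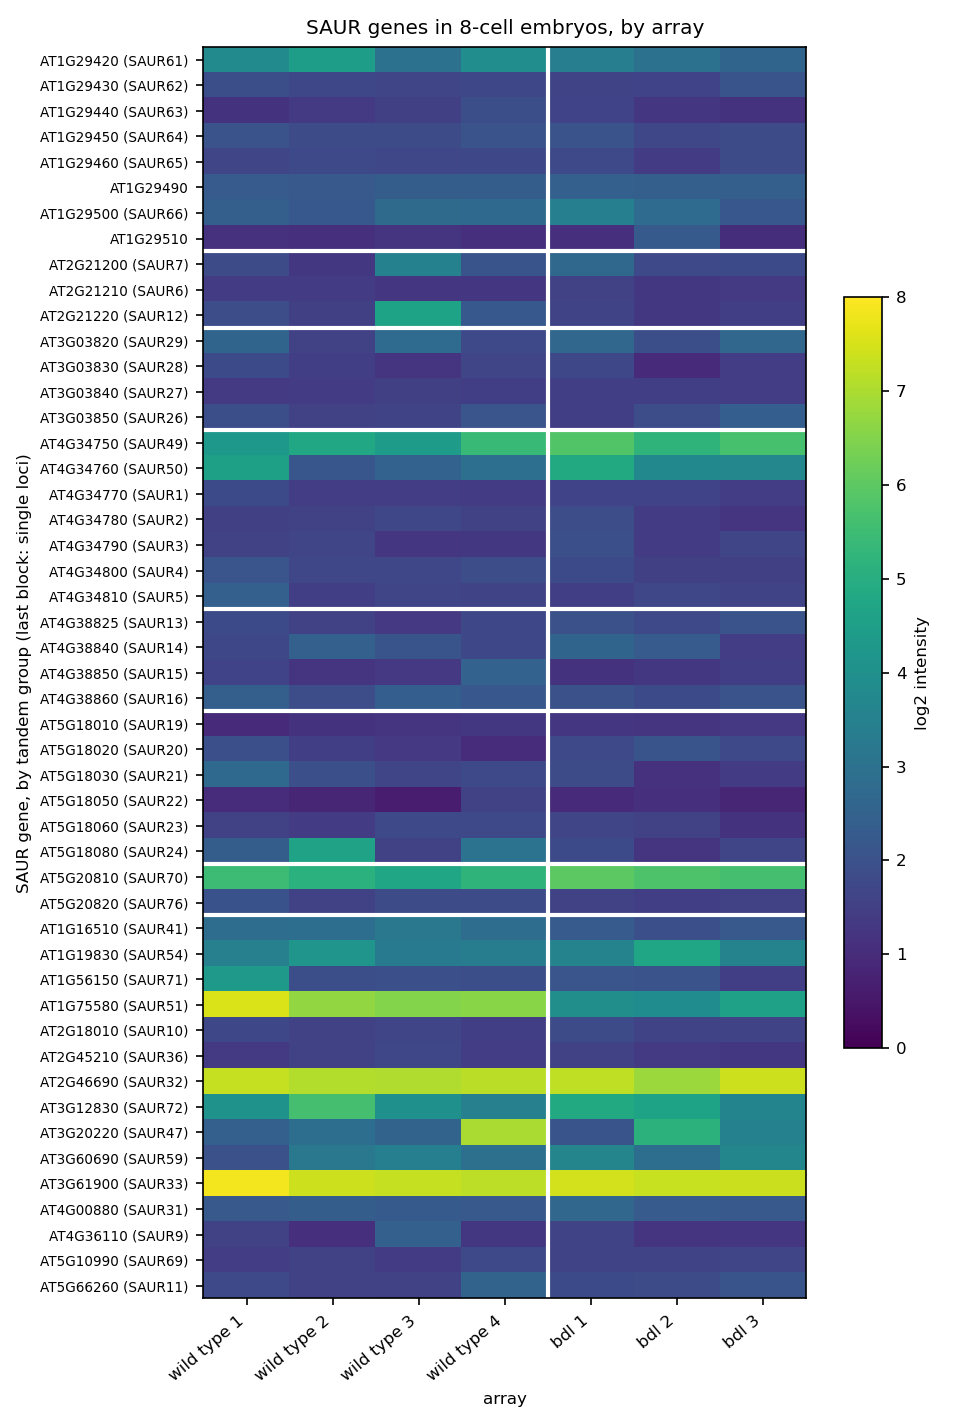
Log2 intensity (colour) of the 49 SAUR genes (rows, grouped by tandem group within the list, with the 15 loci single in the list last) on the 4 wild-type and 3 bdl arrays (columns). Most rows are dark on all arrays, SAUR32 and SAUR33 are bright on all 7, and SAUR51 is bright on the wild-type arrays.

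Of the 38 SAUR genes above the median in neither genotype, 30 belonged to tandem groups. SAUR loci with fewer than 5 protein-coding genes between neighbouring members were taken as a tandem group, which placed 34 genes in 7 groups and left 15 single loci. Of the 34 tandem genes 4 were above the median in either genotype, and of the 15 single loci 7 were. The 6 genes of the SAUR19 to SAUR24 group on chromosome 5, whose proteins promote cell expansion in seedlings, had group means of 0.98 to 2.89, and none was above the median. The 4 listed genes of the SAUR26 to SAUR29 group on chromosome 3 had group means of 1.38 to 2.41, and SAUR73 (AT3G03847), numbered within that group, was not on the list. On chromosome 4 the group of SAUR13 to SAUR16, which includes the classical auxin-induced gene SAUR15 (SAUR-AC1), had group means of 1.31 to 2.22. The 8 genes on chromosome 1 from AT1G29420 to AT1G29510 include SAUR63, whose product promotes organ elongation, and SAUR62, linked to pollen tube growth. SAUR63 was at 1.49 in wild type and 1.35 in bdl and SAUR62 at 1.76 and 1.79, and only SAUR61 of that group was above the median. The group on chromosome 4 from AT4G34750 to AT4G34810 held 7 genes, of which SAUR49 and SAUR50, at its edge, were above the median and the other 5 were under the 25th percentile in both genotypes. Closely related copies can share probe signal, which was not tested, and no SAUR gene had values identical to another probe set.

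SAUR51 (locus AT1G75580, probe set AT1G75580_at) was the only SAUR gene that passed the test between genotypes. Its intensity was 186, 104, 91.9 and 95.9 in wild type 1 to 4 and 15.5, 14.8 and 24.0 in bdl 1 to 3. All bdl arrays thus lay below all wild-type arrays, with wild type 1 the highest of the 7. The geometric mean fell from 114 to 17.6, which is 6.48-fold lower, a log2 difference of -2.70 ± 0.31 (SE; 95% interval -3.40 to -1.99; limma, adjusted p = 0.00416 over all probe sets). In bdl its mean log2 intensity, 4.14 ± 0.39 (SD, n = 3), was still above the median of the array. The call was kept without each of the 7 arrays in turn, with log2 differences of -2.92 to -2.46 and adjusted p-values of at most 0.026. It was lost with the replicate number as a block over replicates 1 to 3, where the difference was -2.78 (limma, adjusted p = 0.0638). On the 4 arrays lowest in pollen markers, a setting chosen after the data were seen, it was lost as well, at -2.76 (limma, adjusted p = 0.147). The embryo marker list mean was also lower on every bdl array than on every wild-type array, and DRN, a transcription factor gene of that list, fell by 1.99 on the log2 scale (limma, adjusted p = 0.00657). Without DRN the list means overlapped, at 8.95 to 9.22 (wild type) and 8.94 to 9.09 (bdl). WOX9 of the same list was also lower on every bdl array, with a log2 difference of -0.82 (limma, adjusted p = 0.088). LEC1 was higher on every bdl array, with a log2 difference of 0.68 (limma, adjusted p = 0.227), and WOX8 differed by -0.02. Of the 6 markers 5 had a difference below 0 and 1 above. The part of these markers, or of the seed coat markers, in the result was not tested.

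The 1 call among 49 genes is close to the share called on the whole array. It made up 2.04% of the list, and 1.76% of all probe sets were called (0.859% lower in bdl and 0.902% higher). At an unadjusted p under 0.05 there were 4 SAUR genes, 2 lower and 2 higher, which is 8.16% against 10.7% of all probe sets. For 4 SAUR genes (8.16%) the 2 genotypes shared no range of intensity, against 11.2% of all probe sets. SAUR51 and SAUR41 were lower on every bdl array, as were 5.53% of all probe sets, and SAUR70 and AT1G29490 were higher, as were 5.71%. Of the 49 log2 differences 25 were below 0 and 24 above, with a median of -0.01, the same as over all probe sets (-0.01). The quartiles of the SAUR differences ran from -0.20 to 0.11, and those of all probe sets from -0.23 to 0.23.

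**Figure D2:**
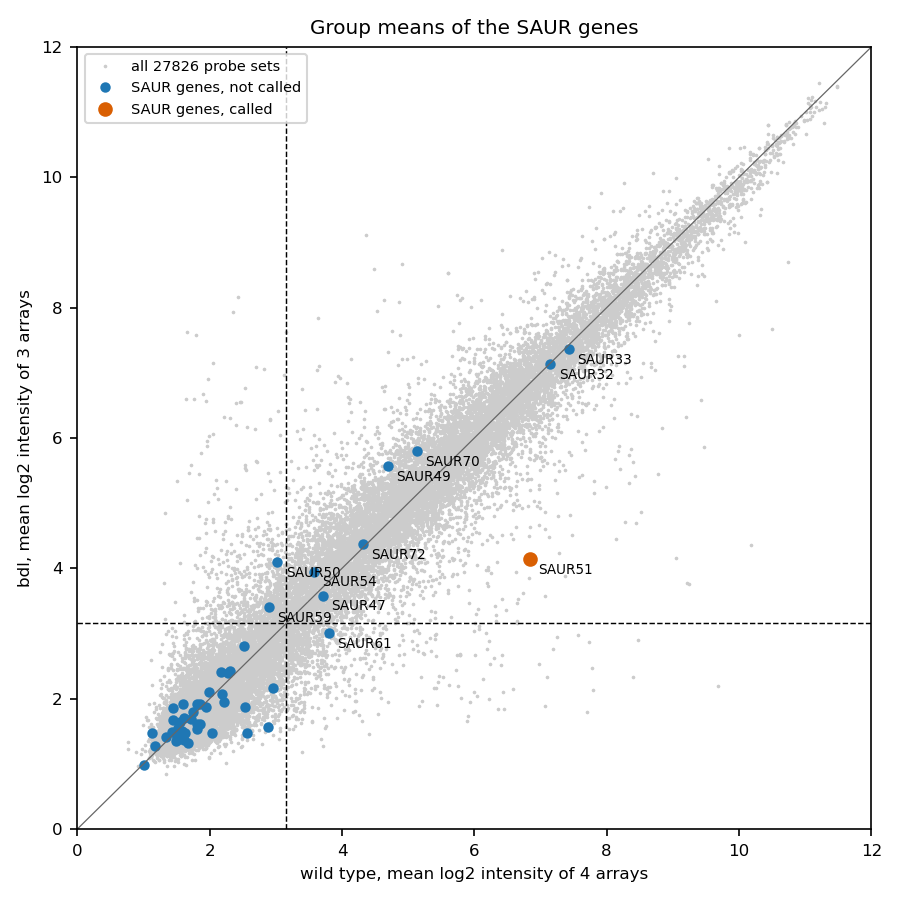
Mean log2 intensity in wild type (x axis, 4 arrays) and bdl (y axis, 3 arrays) for the 49 SAUR genes over all 27826 probe sets (grey); dashed lines are the medians, 3.15 and 3.17. Most SAUR genes sit in the lower left corner, and SAUR51 lies below the diagonal at 6.84 and 4.14.

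Next to SAUR51, several SAUR genes that did not pass had the smallest p-values. SAUR41 (AT1G16510_at), which promotes cell expansion when overproduced, had log2 intensities of 2.86, 2.90, 3.19 and 2.85 in wild type and 2.30, 1.95 and 2.23 in bdl. Its arrays did not overlap, and the log2 difference was -0.79 ± 0.19 (SE; 95% interval -1.22 to -0.36; limma, adjusted p = 0.107). The gene was under the array median in both genotypes.

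SAUR70 (AT5G20810_at) had log2 intensities of 5.50, 5.12, 4.69 and 5.21 in wild type and 5.98, 5.77 and 5.65 in bdl. Every bdl array was above every wild-type array, by 0.67 ± 0.23 on average (SE; 95% interval 0.14 to 1.2; limma, adjusted p = 0.303). Its neighbour SAUR76 (AT5G20820) was dim, at 1.81 ± 0.19 (SD, n = 4) in wild type and 1.53 ± 0.04 (SD, n = 3) in bdl.

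SAUR49 (AT4G34750_at), a promoter of leaf senescence, had log2 intensities of 4.26, 4.76, 4.38 and 5.38 in wild type and 5.83, 5.21 and 5.68 in bdl. Wild type 4 lay above bdl 2, so the genotypes overlapped. The log2 difference was 0.88 ± 0.31 (SE; 95% interval 0.16 to 1.59; limma, adjusted p = 0.328), and 1.43 without the 3 arrays highest in pollen markers. Next to it on the chromosome, SAUR50 (AT4G34760), a light-induced gene of cotyledon opening, was at 4.54, 2.13, 2.52 and 2.91 in wild type and 4.85, 3.74 and 3.70 in bdl. Here wild type 1 lay above bdl 2 and bdl 3, and the difference was 1.07 ± 0.57 (SE; limma, adjusted p = 0.591).

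SAUR61 (AT1G29420_at) was at 3.84, 4.46, 3.0 and 3.93 in wild type and 3.41, 3.01 and 2.59 in bdl. Wild type 3 lay among the bdl arrays, and the log2 difference was -0.80 ± 0.36 (SE; 95% interval -1.63 to 0.02; limma, adjusted p = 0.482). SAUR24 (AT5G18080_at) had 2.37, 4.60, 1.54 and 3.05 in wild type and 1.80, 1.23 and 1.67 in bdl. Its difference of -1.32 ± 0.64 (SE; limma, adjusted p = 0.525) rested in part on wild type 2, and without that array it was -0.75. Without the 3 arrays highest in pollen markers, wild type 2 and 4 and bdl 2, it was -0.22, and the difference of SAUR61 was -0.42. SAUR24 was highest on wild type 2 and 4, and the part of pollen RNA in its level was not tested.

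SAUR32 (AT2G46690_at) and SAUR33 (AT3G61900_at) were bright in both genotypes and differed little between them. SAUR32, a gene active in the apical hook of seedlings, was at 7.30, 7.07, 7.04 and 7.19 in wild type and 7.22, 6.80 and 7.39 in bdl. Its log2 difference was -0.01 ± 0.20 (SE; 95% interval -0.48 to 0.45; limma, adjusted p = 0.989), and its sign turned in some of the alternatives. SAUR33 was at 7.85, 7.40, 7.29 and 7.19 in wild type and 7.44, 7.32 and 7.34 in bdl. Its log2 difference was -0.07 ± 0.21 (SE; 95% interval -0.55 to 0.41; limma, adjusted p = 0.947). Without wild type 1 the sign of SAUR33 turned as well (0.070). For both, a 2-fold change in either direction lies outside the interval.

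**Figure D3:**
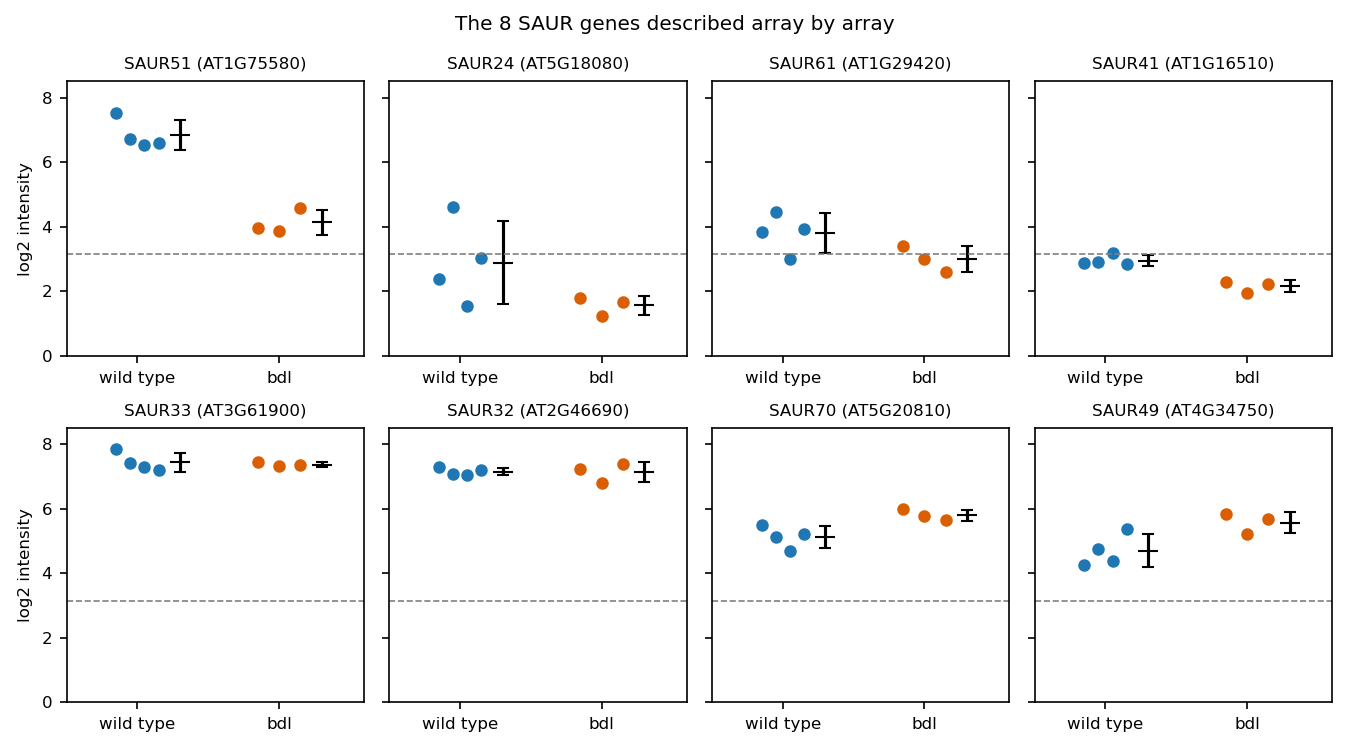
Log2 intensity on each array (points) of the 8 SAUR genes given array by array, with the mean and SD of the 4 wild-type and 3 bdl arrays (bars); the dashed line is the wild-type median of all probe sets, 3.15. The groups are far apart for SAUR51 (6.52 to 7.54 against 3.88 to 4.59) and overlap for SAUR24, SAUR61, SAUR32, SAUR33 and SAUR49.

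How much change could have gone unseen differed from gene to gene. For 29 of the 49 SAUR genes (59.2%) the 95% interval of the log2 difference lay within -1 and 1, and the same held for 59.0% of all probe sets. Only 2 of these 29, SAUR32 and SAUR33, were above the median in either genotype. The other 27 were dim in both genotypes, where an intensity near the bottom of the scale can hide a fall. For the other 20 SAUR genes the interval reached a 2-fold change or more, SAUR51 among them. SE of the log2 difference ranged from 0.16 to 1.19 over the SAUR genes, with a median of 0.25, against 0.27 over all probe sets.

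**Figure D4:**
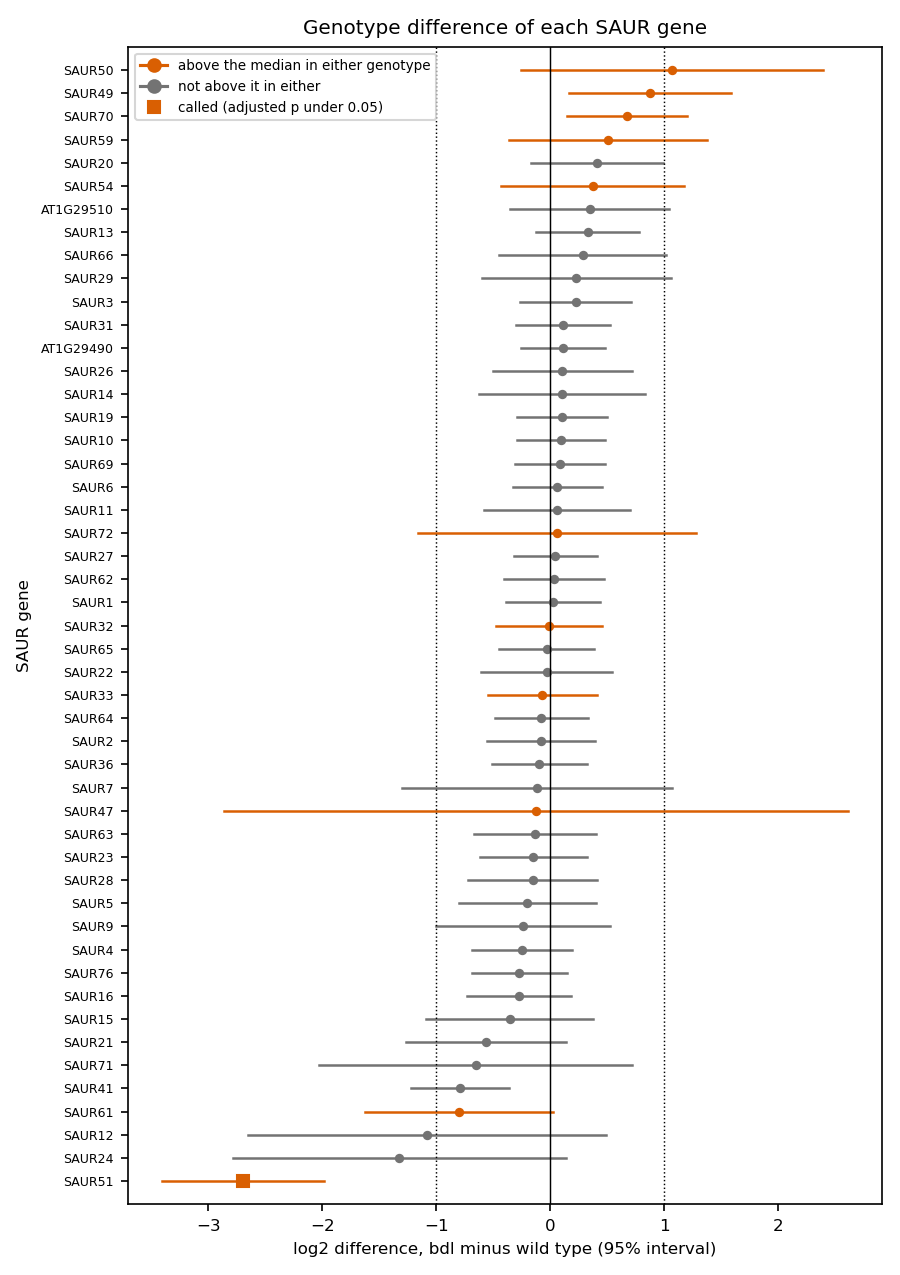
Log2 difference (bdl minus wild type) of each of the 49 SAUR genes with its 95% interval from the whole-array limma fit; orange marks the 11 genes above the median in either genotype, the square is SAUR51, and dotted lines mark a 2-fold change. Most intervals include 0, and SAUR47 has the widest, -2.86 to 2.61.

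Several SAUR genes had a wide range over the wild-type arrays. A range above 1 on the log2 scale was found for 16 SAUR genes (32.7%), against 34.6% of all probe sets. A range above 2 on the log2 scale over the 4 wild-type arrays was found for 7 SAUR genes (14.3%), against 7.09% of all probe sets. The limit of 2 was chosen after the values were seen, and the limit of 1 gives shares that are close to each other. By Dixon's test 1 array stood apart from the other 3 in 4 SAUR genes, SAUR47, SAUR71, SAUR41 and SAUR1 (8.16%, against 6.79% of all probe sets). SAUR47 (AT3G20220) had the widest range, with 2.45, 2.88, 2.53 and 6.97 in wild type and 2.07, 5.15 and 3.52 in bdl. It was thus high on wild type 4 and bdl 2, the arrays with the highest pollen marker means (5.61 and 3.98). Wild type 2, the next in pollen markers (3.67), had only 2.88, and bdl 3, the lowest in them (1.98), had 3.52. The part of pollen RNA in the level of SAUR47 was not tested.

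SAUR71 (AT1G56150), a gene of the SAUR41 subfamily, reached 4.33 on wild type 1 and was at 1.91, 1.97 and 1.91 on the other wild-type arrays and 2.1, 2.05 and 1.49 in bdl. SAUR12 (AT2G21220) was at 4.64 on wild type 3 and at 1.52 to 2.19 on the other wild-type arrays, and in bdl it was at 1.3 to 1.65. Its tandem neighbour SAUR7 (AT2G21200) was also highest on wild type 3, at 3.53, against 1.28 to 2.07 on the other wild-type arrays and 1.75 to 2.67 in bdl. SAUR6 (AT2G21210), which lies between them, was at 1.26 to 1.43 (wild type) and 1.31 to 1.56 (bdl), with no high value on wild type 3. Among the wild-type arrays the high values fell on different ones, with SAUR24 and SAUR72 highest on wild type 2 and SAUR50 and SAUR71 on wild type 1. Over all 7 arrays SAUR50 was highest on bdl 1 (4.85). SAUR72 (AT3G12830) was at 4.09, 5.65, 4.03 and 3.48 in wild type and 4.87, 4.64 and 3.60 in bdl.

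**Figure D5:**
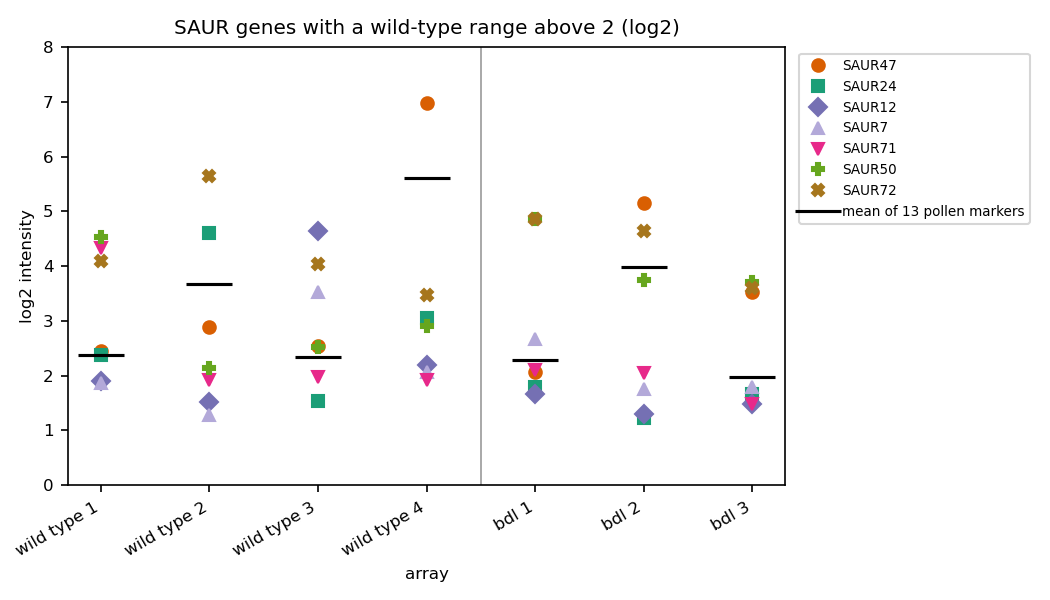
Log2 intensity by array (x axis) of the 7 SAUR genes whose 4 wild-type arrays spanned more than 2 on the log2 scale, with the mean of 13 pollen markers (black dashes). SAUR47 peaks on wild type 4 (6.97) and bdl 2 (5.15), SAUR12 and SAUR7 on wild type 3, and SAUR71 on wild type 1.

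A RefSeq gene table held 31 further loci whose symbol or synonym is a SAUR name, all on the array. They were taken by name alone, and whether each encodes a SAUR protein was not checked. None of the 31 passed the test over all probe sets by limma, where 1.76% of all probe sets did. An unadjusted p under 0.05 was found for 1 of them (3.23%), against 10.7% of all probe sets. Only 3 of them (9.68%) were above the median in either genotype, SAUR37, SAUR48 and SAUR60. SAUR37 (AT4G31320) had log2 intensities of 2.44, 2.07, 2.35 and 2.41 in wild type and 6.04, 4.93 and 3.33 in bdl. All bdl arrays were higher than all wild-type arrays, by 2.45 ± 0.55 on average (SE; limma, adjusted p = 0.0876), with a wide spread within bdl. The next smallest p belonged to SAUR25 (AT4G13790), at 1.84 in wild type and 1.42 in bdl (limma, adjusted p = 0.542). SAUR52 (AT1G75590), the locus next to SAUR51, was at 1.93 ± 0.22 (SD, n = 4) in wild type and 1.88 ± 0.20 (SD, n = 3) in bdl. The gene table gives the name SAUR21 to AT5G18030, which is among the 49, and also to AT5G01830, which is among the 31. The place of AT5G01830 among the 31 rests on that name alone, and it may not be a SAUR gene. It gives SAUR68 to both AT1G29490 and AT1G29510, which are therefore named by locus.

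None of the genes for the partners of SAUR proteins passed the test, where 1.76% of all probe sets did. At that share, lists this short may well hold none. Of the 9 PP2C.D phosphatase genes 8 (88.9%) were above the median in either genotype, against 53.0% of all probe sets. Their median log2 difference was -0.07. PP2C.D1 (AT5G02760) had the smallest p, with 2.87, 3.36, 4.33 and 3.94 in wild type and 2.95, 2.02 and 2.64 in bdl, which differ by -1.09 ± 0.38 (SE; limma, adjusted p = 0.325). PP2C.D8 (AT5G06750) followed, at 3.44 in wild type and 3.96 in bdl (limma, adjusted p = 0.564). Among the 11 plasma membrane H+-ATPase genes 6 (54.5%) were above the median, and the median log2 difference was -0.04. AHA2 (AT4G30190), a major proton pump of roots, had 5.71, 5.21, 5.52 and 5.80 in wild type and 5.29, 4.79 and 4.14 in bdl, which differ by -0.82 ± 0.30 (SE; limma, adjusted p = 0.346). AHA4 (AT3G47950) followed, at 3.15 in wild type and 2.66 in bdl (limma, adjusted p = 0.580). Each of these lists had 1 gene with an unadjusted p under 0.05, PP2C.D1 (11.1% of its list) and AHA2 (9.09%), shares close to the 10.7% of all probe sets.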

How the data were processed

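The authors deposited 1 table with a linear intensity per probe set and array. Per the submitters' processing notes RMA was applied, with no version given. Neither the probe definition of the chip nor the build of the genome is named there, so the gene table (RefSeq, TAIR10.1) served for names and neighbours alone. It held 27241 of the 27826 loci. Values were turned to log2 with no pseudocount and no further scaling. The design text speaks of fewer wild-type replicates than the 4 labelled, and all were used.

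The 2 genotypes were set against each other by limma 3.58.1 under R 4.3.3 (functions lmFit and eBayes, 2-sided, genotype as the only term) on the whole table, with Benjamini-Hochberg adjustment over all probe sets. An adjusted p under 0.05 counted as a call. The procedure was tested on simulated data. The members, the partner and marker lists and the tests were chosen with earlier results of these data known. Values array by array are given for called members, members above the 75th percentile in either genotype (5.49 in wild type and 5.53 in bdl), and the 6 with the smallest p. SAUR12, SAUR47, SAUR50, SAUR71, SAUR72 and SAUR7 were added after their values were seen, and of a partner or further SAUR list with no call the 2 genes with the smallest p are named. Alternatives were other scalings, a pseudocount of 1, another variance model, array weights, filters on dim probe sets, the replicate number as a block, identical probe sets counted once and leaving out each array. The number of arrays limits the precision.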

Additional observations from a re-analysis of the deposited data

Results flagged for a closer look

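Over the 4 wild-type arrays, 4 of the 49 SAUR genes had 1 array apart from the other 3 by Dixon's test (8.16%, against 6.79% of all probe sets), where chance alone flags about 1 in 20. SAUR47 was at 6.97 on wild type 4, against 2.45 to 2.88 on the other wild-type arrays. SAUR71 was at 4.33 on wild type 1, against 1.91 to 1.97. SAUR41 was at 3.19 on wild type 3, against 2.85 to 2.90. SAUR1 was at 1.79 on wild type 1, against 1.41 to 1.46. With 3 arrays, bdl was not examined this way.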

How the results depend on the processing

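SAUR51 was the 1 called SAUR gene in every setting except 2. With the replicate number as a block, over replicates 1 to 3 of each genotype, no SAUR gene was called (0; SAUR51 at -2.78, limma, unadjusted p = 0.000547, adjusted p = 0.0638) and 188 genes were called in all. Same-numbered arrays deviated together with correlations of 0.04, 0.04 and 0.05, and other pairs of the 2 genotypes with -0.08 to 0.11. Whether same-numbered arrays shared a harvest or batch cannot be told from these values. Without the 3 arrays highest in pollen markers, added after the data were seen, the counts were 0 and 105 (SAUR51 at -2.76, limma, unadjusted p = 0.00162). Both settings have fewer arrays. Leaving out each array gave 278 to 374 called genes in all, against 490, and 281, 278 and 299 without bdl 1, 2 and 3. The median SAUR difference stayed between -0.06 and 0.06 in all settings. The count above the median was 8 when every array of a genotype had to be above its own median, 11 to 12 without each array, 5 at the 75th percentile and 28 at the 25th. The sign of SAUR32 turned with array weights (0.010), without wild type 1 or bdl 2 (-0.14 to 0.15 over the 7 omissions) and without the pollen-rich arrays (0.14), and that of SAUR33 without wild type 1 (-0.15 to 0.070). SAUR24, SAUR41, SAUR49, SAUR61 and SAUR70 kept their sign and stayed uncalled in the settings run. Their values moved by over 1.5 times in few of these: SAUR24 from -1.32 to -0.75 without wild type 2, and, without the pollen-rich arrays, SAUR24 to -0.22, SAUR61 from -0.80 to -0.42 and SAUR49 from 0.88 to 1.43. Filters at the 25th and 50th percentile left 25 and 10 SAUR genes.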
